A study of Mus musculus with 13 samples.

Results

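The unfolded protein response and its folding machinery in the endoplasmic reticulum (ER) were followed through 38 genes in mouse splenic B cells. The members were taken as a list of gene symbols, and all 38 were found among 23336 counted symbols: 10 ER chaperones and cofactors, 8 genes of disulfide formation, 9 of ER-associated degradation, 7 stress sensors and effectors, and 4 secretory genes of antibody-secreting cells. RNA-seq read counts came from 13 libraries of B cells isolated from spleen by removing CD43-bearing cells with beads, a selection that also removes plasma cells. Control cells were Regnase-1+/+ hCD20TamCre and deficient cells Regnase-1f/f hCD20TamCre, so both genotypes carried the tamoxifen-inducible Cre recombinase driven from human CD20 sequences, a B cell gene, and they differed at Zc3h12a, which is floxed in the deficient cells and encodes Regnase-1, an endonuclease that cuts mRNAs. Each genotype was profiled unstimulated (4 control and 3 deficient libraries) and after 4 h of stimulation of the B cell receptor (BCR) with anti-IgM F(ab')2 fragments (3 and 3 libraries). The ages of the mice and the tamoxifen schedule are not given in the sources used here, nor is a time for the unstimulated cells, so changes after stimulation and those of 4 h in culture cannot be told apart.

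The ER is where secreted and membrane proteins, antibodies among them, are folded, given disulfide bonds and glycosylated. When unfolded protein accumulates there, 3 membrane sensors, encoded by Atf6, Ern1 (IRE1 alpha) and Eif2ak3 (PERK), raise chaperone and degradation genes through the transcription factors ATF6, XBP1 and ATF4, and PERK also slows translation. B cells are known for enlarging this machinery as they become plasma cells. Many ER chaperone promoters carry the ER stress response element (ERSE), the letters CCAAT and CCACG with 9 bases between them.

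The ERSE was searched on both strands of RefSeq promoters (build GRCm38.p6), each 300 bases long, from 250 bases before to 50 after the gene's start. An entry was found for 33 members, and none was matched for Hyou1, Manf, Derl1, Atf6 and Mzb1. The letters occurred in 10 of these 33 members (30.3%), against 37 of 27025 genes with a promoter (0.137%). The 11 elements are shown because they mark which members share this feature. Capitals mark the CCAAT and CCACG letters, and each element is written 5′ to 3′ on the strand that reads CCAAT first, 6 on the gene's strand and 5 on the opposite one.
Hspa5: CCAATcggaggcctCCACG
Hsp90b1, first: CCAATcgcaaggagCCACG
Hsp90b1, second: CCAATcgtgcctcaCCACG
Calr: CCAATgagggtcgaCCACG
Canx: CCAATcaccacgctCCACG
Dnajc3: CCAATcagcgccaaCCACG
Pdia6: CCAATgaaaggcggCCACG
Creld2: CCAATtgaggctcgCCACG
Ero1lb: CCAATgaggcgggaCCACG
Syvn1: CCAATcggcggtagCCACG
Derl3: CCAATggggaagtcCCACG

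The Hspa5 element lay 65 to 47 bases before the RefSeq start (chr2:34772025-34772043, plus strand). The Ero1lb element lay 201 to 183 bases before its RefSeq start (chr13:12565682-12565700, minus strand). In the GENCODE vM21 annotation both genes begin further upstream, Hspa5 at 34771970 and Ero1lb at 12565874. By that annotation the Hspa5 element lies inside the gene and the Ero1lb element before it. Between the 2 motifs of an element, GC content was 66.7 to 77.8%. The 250 bases before the RefSeq start of these genes are given below because both hold an ERSE, while Hspa5 rose and Ero1lb fell after stimulation. The Hspa5 stretch is chr2:34771840-34772089 and the Ero1lb stretch chr13:12565633-12565882, both on the plus strand, where the Ero1lb element reads as its reverse complement with the same letters in capitals.
Hspa5: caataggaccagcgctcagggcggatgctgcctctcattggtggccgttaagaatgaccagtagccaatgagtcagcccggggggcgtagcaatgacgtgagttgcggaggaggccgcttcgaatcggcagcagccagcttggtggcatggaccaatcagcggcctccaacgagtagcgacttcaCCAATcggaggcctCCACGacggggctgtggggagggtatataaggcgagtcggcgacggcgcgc
Ero1lb: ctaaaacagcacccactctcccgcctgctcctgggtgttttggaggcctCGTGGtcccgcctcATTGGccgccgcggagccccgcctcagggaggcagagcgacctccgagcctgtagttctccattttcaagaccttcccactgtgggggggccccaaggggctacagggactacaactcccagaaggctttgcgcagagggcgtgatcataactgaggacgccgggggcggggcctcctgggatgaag

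A second element, TGACGTGG, which XBP1 and ATF6 are known to bind, was found in 1 of 33 members (Txndc5), against 193 of 27025 genes (0.714%). The composite letters TGATGNAAT, a form bound by C/EBP and ATF4 dimers, were found in 0 of 33 members and 293 genes (1.08%). Each was searched on both strands, and a missing match says only that these letters are not in that window.

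Library totals lay between 21407724 and 33244755 counts. Zc3h12a was present in every library, at 121 to 131 CPM (counts scaled to a common library total) in control unstimulated, 147 to 157 in control stimulated, 89.2 to 111 in deficient unstimulated and 92.6 to 113 in deficient stimulated libraries, so the genotypes did not overlap in either state. Reads of a transcript that lacks the floxed part can still be counted. All 10 B cell markers were detected, with summed levels of 13969 to 18490 CPM in unstimulated and 9472 to 12113 CPM in stimulated libraries. All 7 markers of plasma cells were detected, summing to 376 to 631 CPM in unstimulated and 602 to 784 CPM in stimulated libraries. The sum hides opposite directions: the group means of Slamf7, Tent5c and Prdm1 were higher after stimulation in both genotypes, and those of Sdc1, Jchain, Cd93 and Tnfrsf17 were lower. The plasma cell receptor gene Tnfrsf17 lay at 0 to 0.61 CPM. Deficient animal 1 (the pair of deficient libraries numbered 1), the only deficient female as read from sex-linked genes, had the highest summed levels among deficient libraries of its state for myeloid (553 and 199 CPM), neutrophil (442 and 301), erythroid (1550 and 1441) and plasma cell markers (631 and 784). For plasma cells this rested mainly on Jchain (404 and 377 CPM), while Sdc1 (19.9 and 11.7 CPM), Prdm1 (10.7 and 13.2) and Slamf7 (57.3 and 206) were lowest in that animal among deficient libraries of their state. Among deficient libraries of each state, summed T cell markers were highest in animal 2 (52.1 and 103 CPM), most of it from Lck (31.4 and 83.9 CPM). Control unstimulated libraries 3 and 4 were higher than its unstimulated library, at 57.2 and 70.7 CPM. Fewer cells of a type and less RNA per cell cannot be told apart in bulk libraries. Levels are CPM with TMM factors, and a gene was called where the Benjamini-Hochberg adjusted p of edgeR's quasi-likelihood test over 13574 genes was under 0.05.

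After stimulation most members differed from their unstimulated levels, in both directions, as did most genes tested. In control cells 19 of 38 members rose (50%) and 9 fell (23.7%), where 28.5% of all genes tested rose and 31.8% fell. In deficient cells 18 rose (47.4%) and 7 fell (18.4%), beside 28.3% and 29.6% of all genes. The median log2 change of the members was 0.10 in control and 0.18 in deficient cells, and that of all genes tested was -0.13 and -0.11. The direction was shared by 25 members called in both genotypes, 18 higher and 7 lower, which are 25 of the 28 called in control and 25 of the 25 called in deficient cells. Of 13574 genes tested, 8191 were called in control and 7856 in deficient cells. How many of these were called in both with a shared direction was not counted, so the sharing is not read as particular to the members. Summed over all members, levels went from 6012 to 6410 CPM in control unstimulated libraries to 7407 to 7828 CPM in stimulated ones, and from 5988 to 6048 to 7412 to 7594 CPM in deficient libraries. With no overlap between the groups, 19 members were higher and 11 lower in control cells, beside 29.7% and 33.8% of all genes, and 19 were higher and 8 lower in deficient cells, beside 30.1% and 31.9%.

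**Figure D1:**
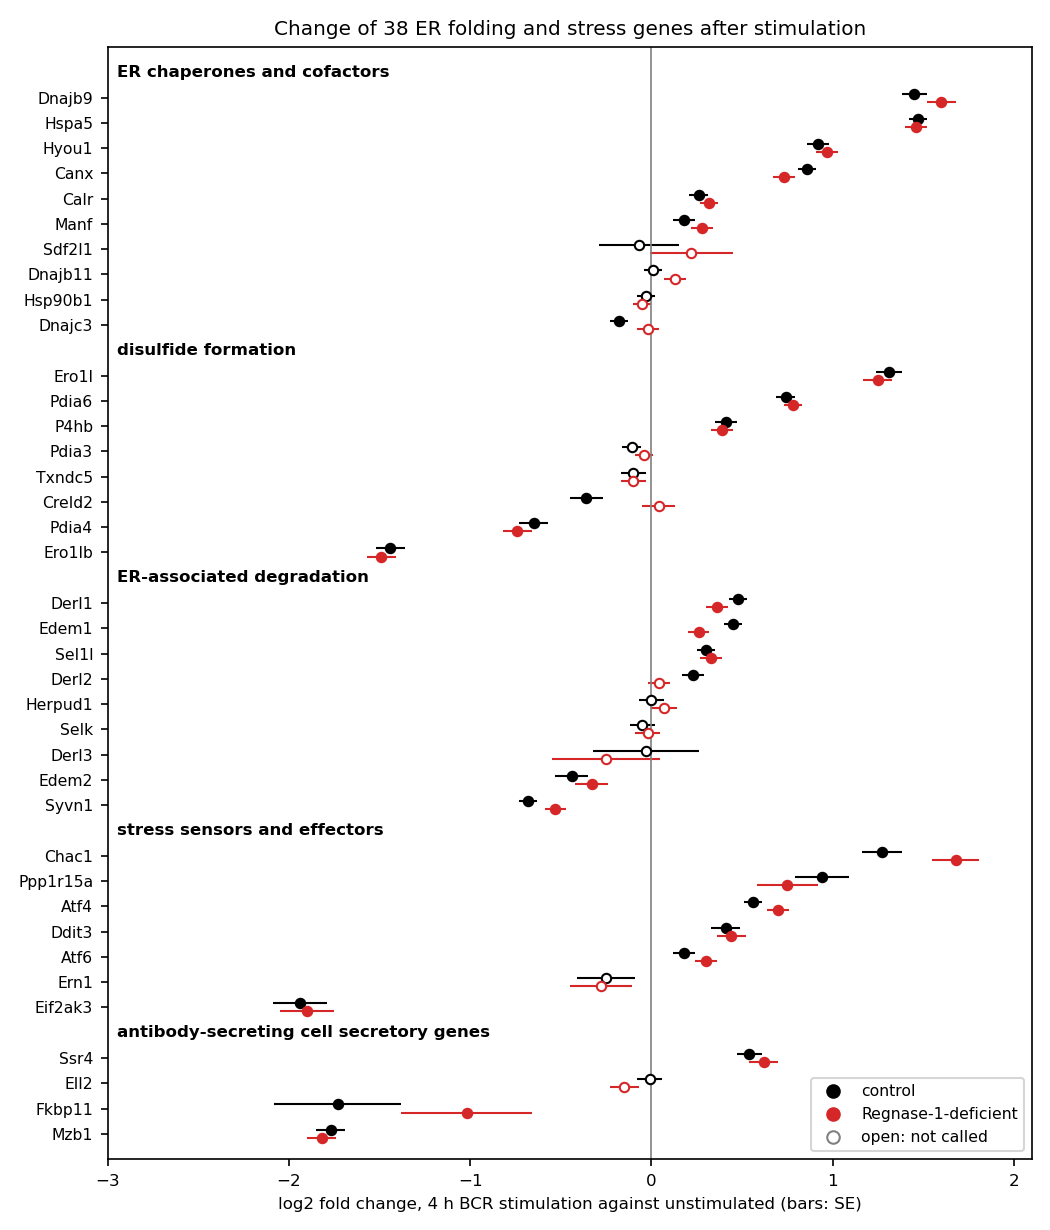
Each row is a member, grouped by role, and points give the log2 fold change after stimulation in control (black) and deficient (red) cells with standard errors. Filled points were called; in control cells they run from Hspa5 at 1.47 to Eif2ak3 at -1.94, and the genotypes' points lie close together for most members.

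Among ER chaperones and cofactors, 6 of 10 rose (60%) and 1 fell (10%) in control cells, beside 28.5% and 31.8% of all genes. In deficient cells 6 rose (60%) and 0 fell, beside 28.3% and 29.6% of all genes. Their summed level was 2162 to 2288 CPM in control unstimulated and 3460 to 3713 CPM in control stimulated libraries. Hspa5, which encodes BiP, the main Hsp70 chaperone of the ER lumen and the protein that holds the stress sensors inactive, lies at chr2:34771970-34777547 (GENCODE vM21, plus strand). Its level was 402, 452, 422 and 433 CPM in the 4 control unstimulated libraries and 1148, 1224 and 1176 CPM in the 3 control stimulated ones. In deficient cells it was 416, 409 and 409 CPM unstimulated and 1117, 1132 and 1134 CPM stimulated. Every stimulated library was far above every unstimulated one in both genotypes, and the change was 1.47 ± 0.05 (log2, SE; 2.77-fold) in control and 1.46 ± 0.06 (2.74-fold) in deficient cells, with adjusted p of 4.3e-12 and 1.6e-11 in edgeR's test.

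Dnajb9 encodes ERdj4, a J-domain cochaperone that delivers substrates to BiP and restrains IRE1 alpha. It stood at 39.7, 43.7, 43.9 and 44.1 CPM in control unstimulated libraries and at 111, 130 and 111 CPM in control stimulated ones. Deficient libraries had 36.3, 36.6 and 38 CPM unstimulated and 101, 114 and 121 CPM stimulated. The stimulated libraries were all above the unstimulated ones, by 1.45 ± 0.07 in control (adjusted p 8.4e-11, edgeR) and 1.60 ± 0.08 in deficient cells (1.3e-10). Hyou1, a large chaperone that exchanges nucleotide on BiP, was at 136 to 156 CPM in control unstimulated and 258 to 299 CPM in control stimulated libraries, and at 132 to 145 and 272 to 276 CPM in deficient ones. Its groups did not overlap either, and its changes were 0.92 ± 0.06 and 0.97 ± 0.06.

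Not all of the lumenal chaperones moved with BiP. Hsp90b1 encodes GRP94, the Hsp90 of the ER and an abundant partner of BiP. It was at 464 to 495 CPM in control unstimulated and 449 to 485 CPM in control stimulated libraries, with log2 changes of -0.03 ± 0.05 in control and -0.05 ± 0.05 in deficient cells, neither called. Per kilobase of transcript, the level of Hspa5 over that of Hsp90b1 was 0.684 ± 0.042 (SD, n = 4) in control unstimulated and 1.93 ± 0.101 (n = 3) in control stimulated libraries. The same ratio went from 0.632 ± 0.00184 (n = 3) to 1.79 ± 0.0204 (n = 3) in deficient cells, with no overlap between the states. Hsp90b1 shares 415 exonic bases with the counted gene 1810014B01Rik on the opposite strand, and no strand setting of the counting was found in the labels.

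The lectin chaperones of glycoproteins rose. Canx (calnexin) changed by 0.86 ± 0.05 in control and 0.73 ± 0.06 in deficient cells, and Calr (calreticulin) by 0.26 ± 0.05 and 0.32 ± 0.05. Manf, a secreted ER stress protein that binds BiP, rose by 0.18 ± 0.06 and 0.28 ± 0.06. The BiP cochaperone gene Dnajc3 (p58IPK, an inhibitor of PERK) fell by 0.18 ± 0.05 in control cells (adjusted p 0.00889, edgeR). In deficient cells Dnajc3 changed by -0.02 ± 0.06 and was not called, and the difference of its responses was 0.16 ± 0.08 (adjusted p 1). Dnajb11 (ERdj3) and Sdf2l1, which act together with BiP, were not called in either genotype: Dnajb11 changed by 0.01 and 0.13, and Sdf2l1, at 3.90 to 8.79 CPM, by -0.07 and 0.22 with standard errors of 0.22 and 0.23. With the animal as a block, Dnajb11 was called higher in deficient cells (adjusted p 0.031, edgeR).

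Genes of disulfide formation split: 3 of 8 rose (37.5%) and 3 fell (37.5%) in control cells, beside 28.5% and 31.8% of all genes. In deficient cells 3 rose (37.5%) and 2 fell (25%), beside 28.3% and 29.6%, so the list as a whole was split much as all genes were. The paired oxidases that recharge protein disulfide isomerases went opposite ways. Ero1l, the widely expressed oxidase (chr14:45283087-45318771, minus strand), was at 57.3, 64.8, 60.0 and 58.8 CPM in control unstimulated and 156, 151 and 142 CPM in control stimulated libraries. Deficient libraries gave 68.7, 55.7 and 57.9 CPM, and 145, 139 and 149 CPM after stimulation. Ero1l was thus higher in every stimulated library, by 1.31 ± 0.07 in control (adjusted p 2.0e-10, edgeR) and 1.25 ± 0.08 in deficient cells (1.2e-09).

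Ero1lb, the second oxidase gene and one known for its high level in secretory cells such as those of the pancreas, lies at chr13:12565874-12611396 (plus strand). It was at 276, 260, 253 and 246 CPM in control unstimulated and 92.9, 96.0 and 97.3 CPM in control stimulated libraries. Deficient libraries had 249, 299 and 303 CPM unstimulated and 90.8, 111 and 101 CPM stimulated. It was lower in every stimulated library, by -1.44 ± 0.08 in control (adjusted p 2.5e-10, edgeR) and -1.49 ± 0.08 in deficient cells (3.8e-10). Per kilobase of transcript, the level of Ero1l was 0.224 ± 0.0174 times that of Ero1lb in control unstimulated libraries (SD, n = 4) and 1.51 ± 0.11 times in control stimulated ones (n = 3), so the order of the 2 oxidases turned. In deficient libraries the same ratio was 0.209 ± 0.0483 (n = 3) and 1.38 ± 0.172 (n = 3).

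The isomerases they serve also differed. Pdia6 (P5) rose by 0.74 ± 0.05 and 0.78 ± 0.05, and P4hb (PDI itself) by 0.41 ± 0.06 and 0.39 ± 0.06, in control and deficient cells. Pdia3 (ERp57, the partner of calnexin and calreticulin) and Txndc5 (ERp46) were not called, with changes of -0.11 and -0.04 for Pdia3 and -0.10 and -0.10 for Txndc5. With the animal as a block both were called lower in control cells (adjusted p 0.024 for Pdia3 and 0.026 for Txndc5, edgeR). Pdia4 (ERp72) fell in both genotypes and is given with the genotype comparisons. Creld2, a small ER stress-inducible protein that binds isomerases, fell by 0.36 ± 0.09 in control cells (adjusted p 0.00243, edgeR) from 26.7 to 31.8 CPM down to 22.5 to 24.6 CPM. In deficient cells its change was 0.04 ± 0.09, and the difference of responses, 0.39 ± 0.13, had an adjusted p of 0.986.

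**Figure D2:**
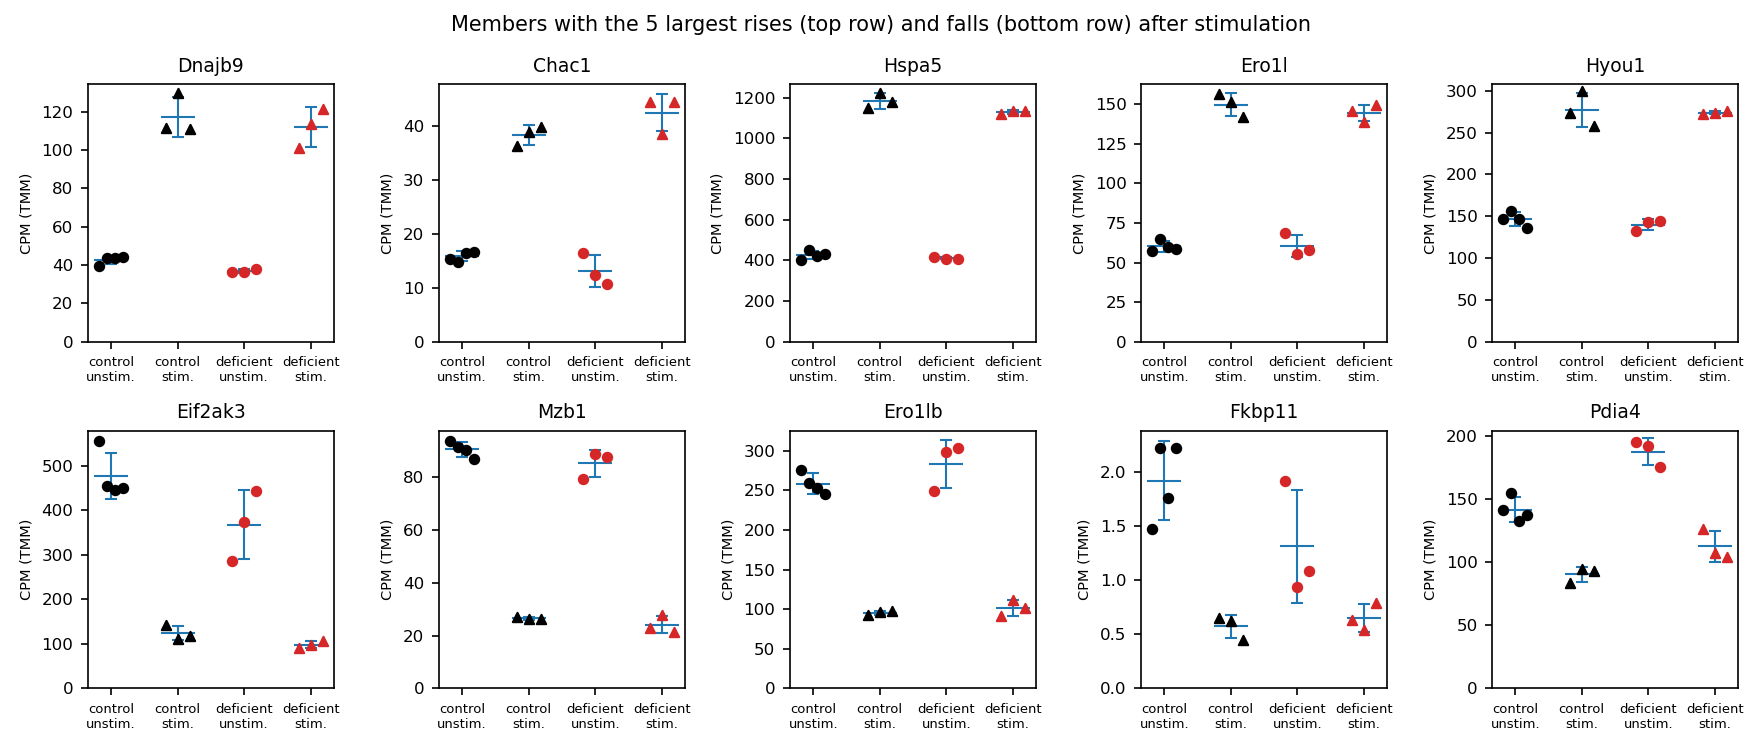
Panels give CPM per library (points, replicate order left to right; blue bars, mean ± SD) for the 5 members with the largest rises and the 5 with the largest falls, in control (black) and deficient (red) cells, unstimulated (circles) and stimulated (triangles). In every panel the stimulated and unstimulated libraries of a genotype do not overlap, for example Hspa5 at 402 to 452 against 1148 to 1224 CPM in control cells.

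ER-associated degradation, which pulls misfolded proteins out of the ER for the proteasome, was also mixed. In control cells 4 of 9 genes rose (44.4%) and 2 fell (22.2%), beside 28.5% and 31.8% of all genes. In deficient cells 3 rose (33.3%) and 2 fell (22.2%), beside 28.3% and 29.6%. Their summed level differed little, at 1040 to 1096 CPM in control unstimulated and 1066 to 1123 CPM in control stimulated libraries. Derl1, which forms part of the retrotranslocation channel, rose by 0.48 ± 0.05 and 0.36 ± 0.06. Sel1l, the adaptor of the ubiquitin ligase HRD1, rose by 0.30 ± 0.05 and 0.33 ± 0.06, while Syvn1, which encodes HRD1 itself, fell by 0.68 ± 0.05 (adjusted p 1.3e-08, edgeR) and 0.53 ± 0.06 (5.7e-07). The adaptor and its ligase thus moved in opposite directions in both genotypes. Of the lectin-like EDEM genes that mark glycoproteins for disposal, Edem1 rose by 0.45 ± 0.05 and 0.26 ± 0.06 and Edem2 fell by 0.44 ± 0.09 and 0.33 ± 0.09. Derl2 rose in control cells by 0.23 ± 0.06 and was not called in deficient cells at 0.04 ± 0.06. Herpud1, a stress-induced organiser of the HRD1 complex and the fourth highest member per kilobase in control unstimulated cells, had changes of 0.00 ± 0.07 and 0.07 ± 0.07. Selk and Derl3 were not called either, the latter at only 2.85 to 7.76 CPM.

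Of the stress sensors, Eif2ak3 fell, Atf6 rose by a small amount and Ern1 was not called. Eif2ak3, which encodes a kinase of eIF2 alpha (chr6:70844515-70905245, plus strand), was at 554, 455, 446 and 450 CPM in control unstimulated and 142, 112 and 118 CPM in control stimulated libraries. In deficient cells it was 287, 372 and 442 CPM unstimulated and 90.2, 97.4 and 107 CPM stimulated. Every stimulated library was below every unstimulated one, and the change was the largest fall of the 38 members in both genotypes, -1.94 ± 0.15 in control (0.260 of the unstimulated level, adjusted p 1.7e-07, edgeR) and -1.90 ± 0.15 in deficient cells (3.6e-07). Per kilobase it ranked 6 among the members in control unstimulated libraries and 24 in control stimulated ones.

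Atf6, a sensor that is cut in the Golgi to release a transcription factor, was at 158, 177, 162 and 162 CPM in control unstimulated and 182, 194 and 186 CPM in control stimulated libraries. Deficient libraries had 163, 184 and 182 CPM unstimulated and 217, 224 and 211 CPM stimulated. States did not overlap in either genotype, with changes of 0.18 ± 0.06 (adjusted p 0.00964, edgeR) and 0.30 ± 0.06 (3.5e-04). Ern1, the sensor kinase and RNase that splices Xbp1 mRNA, was at 24.2, 21.8, 28.7 and 30.9 CPM in control unstimulated and 20.5, 19.9 and 26.4 CPM in control stimulated libraries. It had 29.7, 23.7 and 21.6 CPM in deficient unstimulated and 24.2, 20.5 and 17.1 CPM in deficient stimulated libraries. Its groups overlapped, and the changes were -0.25 ± 0.16 and -0.28 ± 0.17. With the animal as a block the fall in deficient cells was called (adjusted p 0.00689, edgeR).

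The effectors on the ATF4 branch rose in both genotypes. Atf4 itself, the highest member per kilobase in all 4 groups, changed by 0.56 ± 0.05 and 0.70 ± 0.06, and Ddit3 (CHOP, a transcription factor of prolonged stress) by 0.41 ± 0.08 and 0.44 ± 0.08. Ppp1r15a (GADD34, which directs dephosphorylation of eIF2 alpha) changed by 0.94 ± 0.15 and 0.75 ± 0.17. Chac1, an enzyme that degrades glutathione and a known ATF4 target, was at 15.4, 14.8, 16.5 and 16.7 CPM in control unstimulated and 36.2, 38.8 and 39.8 CPM in control stimulated libraries, and at 16.4, 12.4 and 10.7 CPM and then 44.3, 38.4 and 44.5 CPM in deficient ones. Its stimulated libraries were all higher, by 1.27 ± 0.11 (adjusted p 7.7e-08, edgeR) and 1.68 ± 0.13 (1.1e-08), and the difference of the responses was 0.41 ± 0.17 (adjusted p 1).

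Of the 4 secretory genes of antibody-secreting cells, 1 rose (25%) and 2 fell (50%) in each genotype. Among all genes, 28.5% rose and 31.8% fell in control cells, and 28.3% and 29.6% in deficient cells. Mzb1, a BiP cofactor for antibody assembly, was at 93.9, 91.5, 90.2 and 87.0 CPM in control unstimulated and 27.2, 26.2 and 26.4 CPM in control stimulated libraries. Deficient libraries had 79.5, 88.8 and 87.9 CPM and then 23.0, 27.9 and 21.5 CPM. It fell in every stimulated library, by 1.77 ± 0.08 in control (adjusted p 3.6e-11, edgeR) and 1.82 ± 0.08 in deficient cells (6.9e-11).

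Fkbp11, a prolyl isomerase of the secretory pathway, was low throughout, at 1.48, 2.22, 1.76 and 2.22 CPM in control unstimulated and 0.650, 0.621 and 0.450 CPM in control stimulated libraries. In deficient cells it was 1.91, 0.933 and 1.09 CPM and then 0.631, 0.535 and 0.791 CPM. It fell by 1.73 ± 0.35 in control cells and by 1.02 ± 0.36 in deficient cells (adjusted p 0.0248, edgeR), a call lost without deficient unstimulated library 1 (-0.63, adjusted p 0.18) and without deficient stimulated library 1 (-0.98, 0.0679) or 2 (-0.88, 0.0929). It was also lost without both libraries of deficient animal 1 (-0.55, adjusted p 0.309) and in a fit of only the groups compared (-1.02, 0.0732). On the deposited log2 values, limma gave smaller changes of -0.67 and -0.35 (adjusted p 2.8e-04 and 0.0378). Ssr4, a subunit of the translocon-associated complex, rose by 0.54 ± 0.07 and 0.62 ± 0.08. Over the same control libraries 4 of the 7 plasma cell markers had lower means after stimulation, Sdc1 (43.3 to 20.3 CPM), Cd93 (81.5 to 46.0), Jchain (270 to 251) and Tnfrsf17 (0.470 to 0.185). The other 3 had higher means, Slamf7 (75.5 to 202 CPM), Tent5c (33.1 to 101) and Prdm1 (14.5 to 19.7), and the part of plasma cells in the fall of Mzb1 and Fkbp11 was not tested.

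An ERSE did not go with one direction of response. Of members called higher in both genotypes and with a promoter entry, 4 of 14 held the letters (28.6%), of those called lower in both, 2 of 6 (33.3%), and of the remaining members 4 of 13 (30.8%). Hspa5, Canx, Pdia6 and Calr rose, Ero1lb and Syvn1 fell, and Hsp90b1, which holds 2 elements, was not called. Dnajb9, Chac1 and Ero1l rose with no ERSE letters in the window searched.

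**Figure D3:**
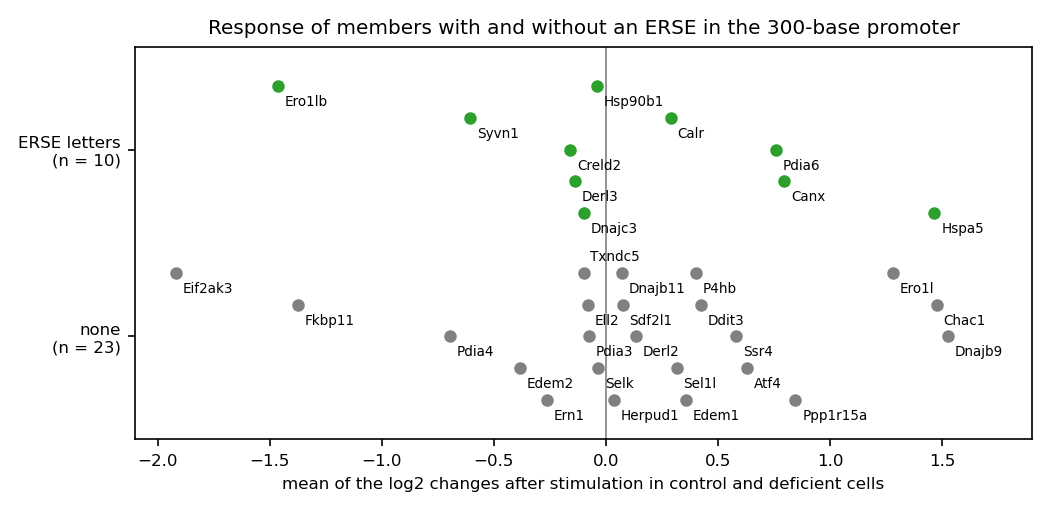
Each point is a member with a promoter entry, placed by the mean of its log2 changes after stimulation in control and deficient cells, with ERSE letters in the 300-base window (upper group, 10 members) or without (lower group, 23 members). Both groups run from falls (Ero1lb; Eif2ak3) to rises (Hspa5; Dnajb9).

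Other genes of the ER and secretory pathway gave a wider view of the same libraries, where 28.5% of all genes rose and 31.8% fell in control cells. In deficient cells these shares of all genes were 28.3% and 29.6%. Of 12 subunits of the oligosaccharyltransferase, which attaches glycans to new proteins, 8 rose (66.7%) and 0 fell in control cells. In deficient cells 9 rose (75%) and 0 fell, and the medians were 0.41 in control and 0.42 in deficient cells. The catalytic subunit gene Stt3a rose by 0.94 ± 0.04 and 0.89 ± 0.05 and Rpn1 by 0.56 ± 0.05 and 0.52 ± 0.05. Of 22 translocon and signal recognition genes, 11 rose (50%) and 3 fell (13.6%) in each genotype. Srp72, of the signal recognition particle, rose by 0.75 ± 0.05 in control cells and Sec11c, of the signal peptidase, fell by 1.51 ± 0.07. Of 24 tested genes of ER to Golgi transport, 14 rose (58.3%) and 6 fell (25%) in control cells. In deficient cells 13 rose (54.2%) and 5 fell (20.8%). The receptors that return escaped chaperones to the ER split, with Kdelr2 at 0.79 ± 0.05 and Kdelr1 at -0.69 ± 0.06 in control cells.

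Of 20 further ER folding enzymes, 3 rose and 9 fell in control cells (15% and 45%, beside 28.5% and 31.8% of all genes). In deficient cells 4 rose and 5 fell (20% and 25%), and both shares lay below those of all genes (28.3% and 29.6%). Mogs, the first glucosidase to trim new glycans, rose by 1.21 ± 0.07 in control cells, while the sulfhydryl oxidase gene Qsox1 fell by 1.22 ± 0.09. Of 20 further degradation factors, 5 rose (25%) and 8 fell (40%) in control cells. In deficient cells 5 rose (25%) and 7 fell (35%), so these shares were near those of all genes. Ube2g2, a ubiquitin-conjugating enzyme of this pathway, rose by 0.75 ± 0.06 and the lectin gene Os9 fell by 0.54 ± 0.05 in control cells.

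Of the ATF4 and integrated stress response list, 18 of 25 genes (72%) rose and 1 fell in each genotype, with a median log2 change of 1.11 in control and 1.08 in deficient cells. The largest rise in control cells was that of Psat1, of serine synthesis, at 2.04 ± 0.08, and the amino acid transporter subunits Slc7a5 and Slc3a2 rose by 1.39 ± 0.06 and 1.42 ± 0.07. The 1 gene that fell in control cells was Ddit4 (-0.78). Among 14 other sensors and regulators, 6 rose (42.9%) and 4 fell (28.6%) in control cells. In deficient cells 6 rose (42.9%) and 3 fell (21.4%). Xbp1 fell by 0.45 ± 0.13 in control cells (adjusted p 0.00941, edgeR), and in deficient cells its change of -0.29 ± 0.14 was not called. Gene counts do not tell its spliced form from the unspliced one. In the plasma cell program list, 4 of 12 rose (33.3%) and 5 fell (41.7%) in control cells, shares near those of all genes. The transcription factor gene Irf4 rose by 2.60 ± 0.13 and the syndecan gene Sdc1 fell by 1.09 ± 0.15.

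Few members differed between the genotypes. Sex, as read from sex-linked genes, was unevenly spread over them. Control libraries numbered 2, 3 and 4 and deficient libraries numbered 1 were read as female. Control libraries numbered 1 and deficient libraries numbered 2 and 3 were read as male. Differences between genotypes without a sex term thus partly carry differences of sex. In unstimulated cells 1 of 38 members was higher in deficient than in control cells and 0 were lower, beside 0.125% of all genes higher and 0.199% lower. In stimulated cells 0 were higher and 2 were lower, beside 0.751% and 1.26% of all genes. At an unadjusted p under 0.05 there were 8 members (21.1%) in unstimulated and 11 (28.9%) in stimulated cells, beside 8.63% and 12% of all genes. The members' median log2 difference was -0.05 in unstimulated and 0.02 in stimulated cells, and that of all genes -0.02 and 0.00. Without overlap between the genotypes, 2 members were higher and 6 lower in unstimulated cells, beside 3.14% and 5.58% of all genes, and 8 were higher and 7 lower in stimulated cells, beside 7.8% and 10% of all genes. Of the 7 pathway lists and the plasma cell program, 1 gene was called between genotypes, Sdc1 in stimulated cells (-0.68 ± 0.16, adjusted p 0.0486, edgeR).

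Pdia4, a disulfide isomerase also called ERp72 (chr6:47796141-47813430, minus strand), was the member called in unstimulated cells. It was at 142, 155, 133 and 137 CPM in control unstimulated libraries, and the deficient ones had 195, 193 and 175 CPM. All deficient libraries were above all control libraries, by 0.41 ± 0.07 (1.32-fold, adjusted p 0.0303, edgeR). After stimulation it was at 83.8, 94.3 and 93.0 CPM in control libraries, and deficient ones had 127, 107 and 104 CPM, again without overlap, a difference of 0.32 ± 0.08 with an adjusted p of 0.0568. It fell with stimulation by 0.65 ± 0.08 and 0.74 ± 0.08. The call in unstimulated cells was lost when any one of deficient library 1 (adjusted p 0.0903), deficient library 2 (0.16), or control library 1 (0.101), 3 (0.11) or 4 (0.0838) was left out, while the difference stayed between 0.37 and 0.46 over its 17 alternatives. Deficient animal 1, with the highest summed myeloid, neutrophil and erythroid markers of the deficient libraries, also had the highest Pdia4 of them in both states. Control unstimulated libraries 3 and 4 had Pdia4 at 133 and 137 CPM. Their summed markers were 493 and 445 CPM (myeloid), 244 and 416 (neutrophil) and 793 and 936 (erythroid). Deficient unstimulated library 1 had 553, 442 and 1550 CPM. The part of those cells was not tested. Without deficient unstimulated library 1 the difference was 0.38.

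Edem1 and Ell2 were called lower in stimulated deficient cells. Edem1 (chr6:108828641-108859356, plus strand) was at 194, 209 and 194 CPM in control stimulated libraries, and the deficient ones had 169, 173 and 160 CPM. The groups did not overlap, with a difference of -0.25 ± 0.06 (adjusted p 0.0309, edgeR). In unstimulated cells Edem1 was at 142, 152, 140 and 148 CPM in control libraries, and deficient ones overlapped them at 144, 133 and 144 CPM (-0.06 ± 0.05). The call in stimulated cells was lost in all 6 fits that left out 1 stimulated library (adjusted p 0.0568 to 0.143), and the difference of the stimulation responses, -0.19 ± 0.08, had an adjusted p of 1.

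Ell2, an elongation factor gene known for directing secretory-form immunoglobulin mRNA in plasma cells (chr13:75706757-75772364, plus strand), was at 94.1, 87.2 and 86.4 CPM in control stimulated libraries, and the deficient ones had 73.8, 64.7 and 62.1 CPM. All deficient libraries were below all control libraries, by -0.42 ± 0.08 (0.749 of the control level, adjusted p 0.00953, edgeR). In unstimulated cells it was at 95.5, 96.4, 85.7 and 81.7 CPM in control libraries, and deficient ones had 77.3, 71.3 and 74.3 CPM, also without overlap, with a difference of -0.27 ± 0.07 that was not called (adjusted p 0.19). The call in stimulated cells was lost without deficient library 2 (adjusted p 0.0517), deficient library 3 (0.0525) or control library 1 (0.0635). Stimulation did not move Ell2 past the threshold, at -0.01 ± 0.07 in control and -0.15 ± 0.08 in deficient cells, though the animal block called the latter (adjusted p 0.0242, edgeR).

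**Figure D4:**
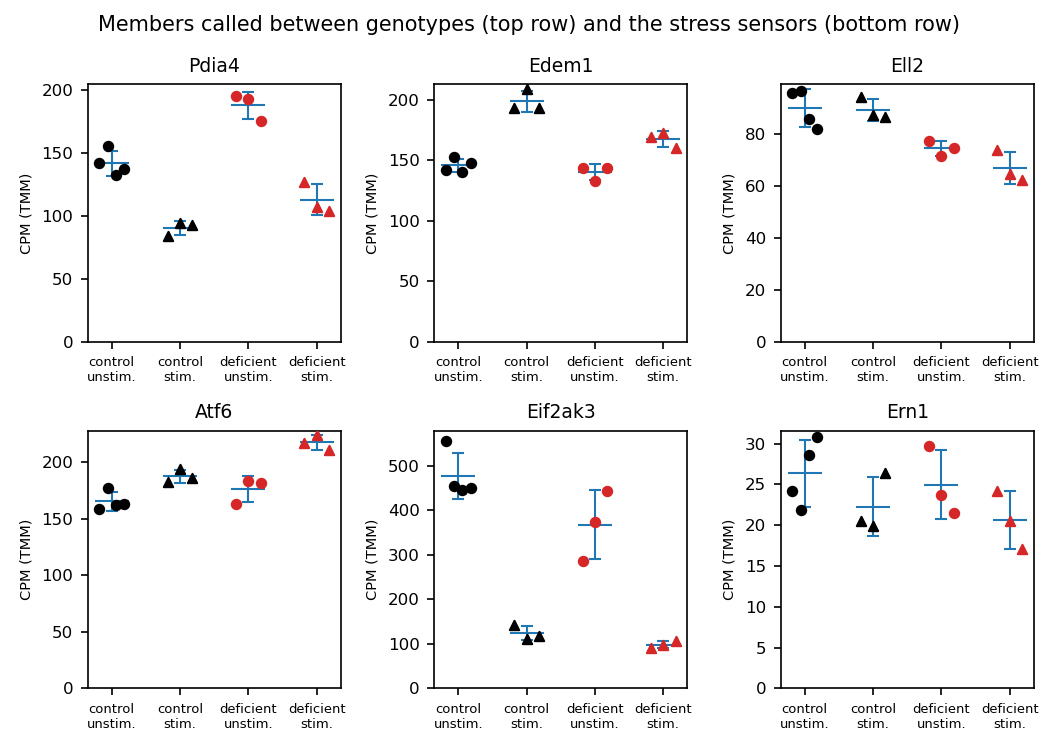
CPM per library for the 3 members called between genotypes (top row) and the 3 stress sensors (bottom row), in control (black) and deficient (red) cells, unstimulated (circles) and stimulated (triangles), with mean ± SD in blue. Pdia4 is higher in deficient libraries of both states, at 175 to 195 against 133 to 155 CPM unstimulated, and Ell2 is lower, at 62.1 to 73.8 against 86.4 to 94.1 CPM stimulated.

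Among the sensors, Eif2ak3 was lower in every deficient library than in every control library of its state, with differences of -0.38 ± 0.14 unstimulated and -0.33 ± 0.15 stimulated that were not called (adjusted p 0.459 and 0.402). With the sex of the libraries as a term they were -0.52 and -0.44 and were called (adjusted p 0.00172 and 0.0027, edgeR). Atf6 was higher in all deficient stimulated libraries, by 0.21 ± 0.06 (adjusted p 0.0899), and Derl1 was lower in all of them, by -0.21 ± 0.06 (0.0628). Herpud1 was lower in deficient libraries without overlap in both states, by -0.26 ± 0.07 (adjusted p 0.173) and -0.19 ± 0.07 (0.255). The differences of Hspa5 were small, -0.05 ± 0.05 and -0.07 ± 0.05.

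The response to stimulation was also compared between genotypes directly. No member was called for the difference of responses (0 of 38 higher and 0 lower by edgeR, and 0 by DESeq2), beside 0.00737% of all genes higher and 0% lower, and 4 members (10.5%) had an unadjusted p under 0.05, beside 3.76% of all genes. With the animal as a block, 68 genes and 0 members were called. The members' differences ran from -0.23 to 0.72 with a median of 0.04, where all genes had 0.02. The extremes were the low genes Derl3 (-0.23 ± 0.42) and Fkbp11 (0.72 ± 0.50). Counted per animal, taking same-numbered libraries of a genotype as 1 animal and leaving out control library 4, which has no partner, 18 members were higher after stimulation in all 6 animals, 11 were lower in all 6 and 9 went both ways. Of all genes tested, 31.1% were higher and 36.7% lower in all 6, against 47.4% and 28.9% of the members.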

How the data were processed

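Per library, the authors deposited 1 table of read counts by gene symbol. TopHat, HTSeq, DESeq2 and the build mm10 are named, without versions or roles, in the submitters' processing notes. The authors also deposited log2 values, on a scale the labels do not describe. Gene annotation, strandedness and the treatment of multi-mapping reads are not given in the sources used here. The count tables held 23337 symbols, of which 1 with a missing cell was left out. Of the 38 members 37 matched by symbol and Mzb1 by its older symbol in the RefSeq table. All 38 passed the filter. The members, gene lists and tests were chosen with earlier results of these data known.

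Counts were fitted with edgeR 4.0.16 in R 4.3.3 (filterByExpr with a minimum count of 10, TMM factors, robust quasi-likelihood, 13 libraries with a mean per group, 9 residual degrees of freedom), which left 13574 genes, and p-values were adjusted over all of them. The fit was tested on simulated counts drawn independently for each library. That simulation held no link between same-numbered libraries, so it does not test how such a link bears on the fit. Standard errors are the log2 fold change over the root of the F statistic. No pair of replicates agreed within sampling noise (chi-square per gene 8.22 to 36.1). Since the labels do not tie libraries to separate animals, the p-values may measure a spread between samples that is technical.

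Same-numbered libraries of a genotype deviated together across states (over 9658 genes, r was 0.73, 0.49 and 0.57 for the control pairs and 0.83, 0.76 and 0.62 for the deficient ones), which pairs the states within a genotype. Members given library by library were those called between genotypes, the 5 largest rises and 5 largest falls among members called in both stimulation comparisons, and the 3 sensors. Transcript lengths and coordinates came from GENCODE vM21 (mm10), with the longest principal transcript as length. The alternatives tried in edgeR were upper-quartile factors or the size factors of DESeq2, no filter on low counts or at least 1 CPM in 3 libraries, a fit of the compared groups alone, sex as a term and the replicate block. Others were DESeq2 1.42.0, limma 3.58.1 on the deposited log2 values (36 members have such values), and leaving out each library, or both libraries of deficient animal 1.

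Without the strandedness of the counting, reads of genes that overlap on opposite strands cannot be told apart. Txndc5 shares 224 exonic bases with Bmp6, Syvn1 91 with Mrpl49 and Ddit3 68 with Mars. Pdia6 shares 50 with Atp6v1c2, Pdia3 18 with Catsper2 and Ppp1r15a 11 with Tulp2. On the same strand, where strandedness would not separate reads, Mzb1 shares 695 exonic bases with SPATA24, Pdia4 14 with Mir704 and Manf 14 with Rbm15b. SPATA24 was not found under that spelling among the counted symbols, and how the overlap bears on the counts of Mzb1 was not tested.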

Additional observations from a re-analysis of the deposited data

Results flagged for a closer look

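Of 38 members tested for a library far from the others in the control unstimulated group, the only group of 4, 2 had one, and chance alone gives about 1 in 20. Dnajb9 was at 39.7 CPM in control unstimulated library 1, against 43.7 to 44.1 CPM in the other 3 libraries. Eif2ak3 was at 554 CPM in the same library, against 446 to 455 CPM. That library was read as male and the other 3 of its group as female.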

How the results depend on the processing

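The members called after stimulation numbered 28 in control cells, 27 to 29 when 1 library was left out and 26 to 30 in 9 other settings, and 25 in deficient cells, 24 to 26 when 1 library was left out and 24 to 29 in 10 other settings. Over all genes, 8191 were called in control cells, with 7513 to 8855 in the alternatives. In deficient cells 7856 were called, with 7186 to 8900 in the alternatives. Upper-quartile factors put 11 members lower in each genotype, in place of 9 and 7, as they lowered the median of all genes to -0.20 in both. Between genotypes the counts were small and moved by 1 to 3. In unstimulated cells, where 1 member was called, the count was 2 with sex as a term, 2 by DESeq2, 2 without both libraries of deficient animal 1, 0 with the replicate block and 0 to 1 when 1 library was left out. Where the count was 2, 1 member was higher and 1 lower in deficient cells. Without deficient unstimulated library 1 the 1 call was of a member lower in deficient cells, not of Pdia4. In stimulated cells, where 2 members were called, the count of members was 4 with upper-quartile factors, 5 with sex as a term and 5 by DESeq2. It was 1 with only the groups compared, 1 with the replicate block and 0 to 1 when 1 library was left out. Over all genes, 273 were called in the main fit, 364 with upper-quartile factors, 511 with sex as a term and 532 by DESeq2. Fitting only the groups compared called 208 genes, the replicate block 274, and the fits without 1 library 129 to 230. The cause of these shifts was not tested. For the difference of responses the count of members was 0 in each of 9 settings and 13 fits without 1 library.

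The animal block (4 residual degrees of freedom) called 30 members in control and 28 in deficient stimulation comparisons. Over all genes it called 8855 and 8900, against 8191 and 7856 in the main fit. Its calls for Dnajb11, Pdia3, Txndc5, Ern1 and Ell2 are given above. Across genotypes the numbers are only numbers (r of -0.59 to -0.06), and under that block Pdia4 in unstimulated (adjusted p 0.0769) and Edem1 in stimulated cells (0.0549) were not called. Over 1210 alternatives of 70 results on the members given library by library, 0 changed direction past the threshold, 23 lost a call and 15 gained one. Over its alternatives the adjusted p was 6.7e-06 to 0.16 for Pdia4 in unstimulated cells (called in 11 of 17), 0.00117 to 0.143 for Edem1 (7 of 16) and 9.5e-06 to 0.0635 for Ell2 in stimulated cells (13 of 16). Pdia4 in stimulated cells was called in 5 of 16 and Atf6 in 3 of 16. Fkbp11, near 1 CPM, lost its call in deficient cells in 5 of 16, with -0.55 (adjusted p 0.309) without deficient animal 1. Of the members, Fkbp11, Derl3 and Sdf2l1, all under 10 CPM, had the largest standard errors.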
